A study of Homo sapiens with 27 samples.

Results

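The response of parental Panc1 cells to low oxygen was read from 6 of the 27 RNA sequencing libraries in the series, 3 of cells kept at 1% O2 and 3 of cells kept at 20% O2. The labels alone chose them. Panc1 is an established cell line from a human pancreatic ductal adenocarcinoma. The cells of both groups carried the parental genotype, with no ARNT knockout, and spent 48 hours in the same regular medium, DMEM with fetal bovine serum and penicillin-streptomycin. Oxygen is the only difference between the groups that the labels give. They are called normoxia and hypoxia here. The other 21 libraries hold 2 ARNT-knockout clones and a medium called TIFM. Their own values enter below only where the response of the clones was set against the parental one. All 27 libraries were in 1 fit, so the spread behind the p-values was estimated also from groups outside the comparison. The labels do not say whether replicates were separate cultures, so this spread between libraries may be technical.

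Cells sense oxygen through prolyl hydroxylases of the EGLN family, which mark the alpha subunits HIF1A and EPAS1 (HIF2A) for destruction through VHL as long as oxygen is present. When oxygen is short the alpha subunits persist, pair with ARNT and bind a short DNA core, the hypoxia response element, near genes of glucose use, vessel growth, red cell and iron supply, and matrix formation. Pancreatic ductal tumors are dense, poorly perfused and often hypoxic, and a raised glycolytic and matrix programme is well known in them.

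Each parental library held between 30168239 and 38341713 counts, and mitochondrial transcripts took 2.80% to 4.32% of counts in normoxia and 2.30% to 2.98% in hypoxia. On the log2 scale the first principal component of the 6 libraries carried 85.9% of the variance and separated the groups. The second carried 9.08% and set normoxia replicates 2 and 3 at opposite ends, and variation between replicates was 9.83% in normoxia against 5.01% in hypoxia (biological coefficient of variation). This variation was 7.79% over the 6 libraries and 14.1% over the 27 whose common fit gave the p-values. Keratins of ductal carcinoma cells were high (KRT8 at 3791 to 5183 CPM over the 6 libraries). CPM are the counts of a gene per 1000000 of the scaled library size. Of 22 markers of other cell types, 21 stayed under 1 CPM in all 6 libraries. The exception was CD68 at 76.6 to 107 CPM, a lysosomal protein not confined to macrophages. The other markers summed to between 0.675 and 0.960 CPM in the normoxia libraries and between 1.28 and 2.08 CPM in the hypoxia libraries, with CD3E, PRSS1, AMY2A, INS and HBB at 0 in all 6. The part of these traces in the results was not tested. Some genes that every cell uses, among them MDH1, SDHA, CDK2, RPS4X and RPL15, were listed at 0 in all 27 libraries, as were 49 of the 996 genes on the lists used here. EGLN2 and the aldolase ALDOC were also listed at 0, and ALDOA, LDHB and EGLN1 stayed below the count filter with 101, 11 and 78 counts over the 27 libraries. The cause was not tested, and none of these genes could be assessed.

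Hypoxia changed a large part of the transcriptome. Of 13943 genes tested with edgeR's quasi-likelihood test, 4212 (30.2%) passed a Benjamini-Hochberg adjusted p under 0.05, 2141 higher (15.4%) and 2071 lower (14.9%). These 2 shares are the background for the list counts below, unless another fit is named. The balance differed with size. At 2-fold or more, 885 genes were higher (6.35%) and 249 lower (1.79%), and at 4-fold or more 220 were higher and 22 lower. The median change over all tested genes was −0.0022 on the log2 scale, and the 3 libraries of each group did not overlap for 7903 genes (56.7%). A fit with only the 6 libraries called 6804 genes, 24.7% of 13086 higher and 27.3% lower, the background for list counts given from that fit. At 2-fold or more 906 were higher and 267 lower there.

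**Figure D1:**
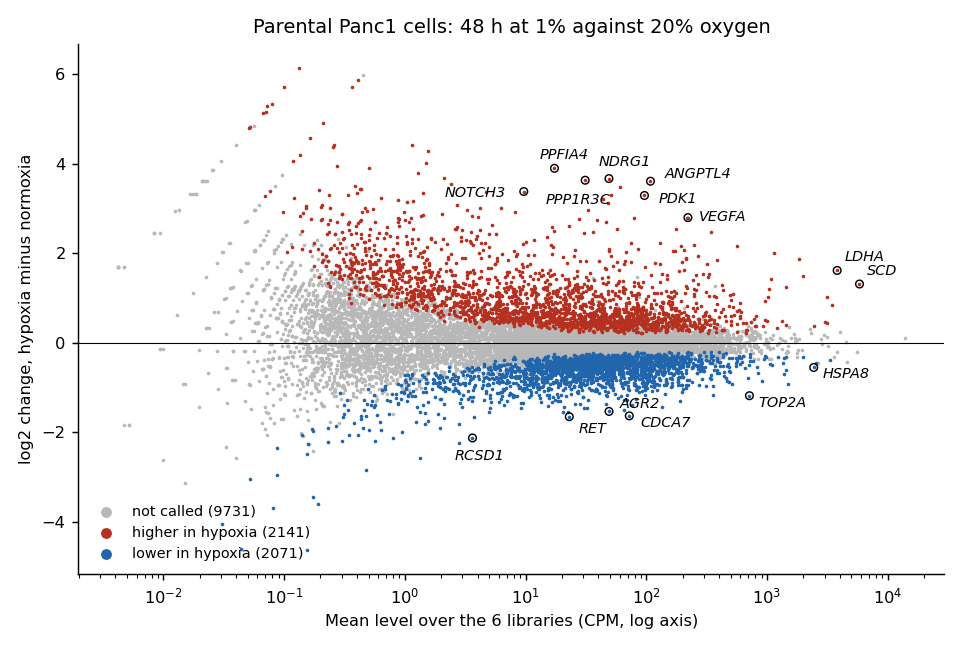
The log2 change of each of the 13943 tested genes (hypoxia minus normoxia) is plotted against its mean level over the 6 libraries in CPM on a log axis, with genes that passed the test in red (2141 higher) or blue (2071 lower). Large rises such as ANGPTL4, PDK1 and VEGFA lie well above the largest falls of abundant genes such as CDCA7 and TOP2A.

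The subunits of the factor itself moved in different directions. EPAS1 (chromosome 2, 46293667 to 46386703, GRCh38) stood at 244, 267 and 240 CPM in normoxia and 526, 516 and 478 CPM in hypoxia, a log2 change of 1.02 ± 0.14 (SE). HIF1A (chromosome 14, 61695513 to 61748259) stood at 204, 176 and 210 CPM in normoxia and 128, 125 and 117 CPM in hypoxia (−0.67 ± 0.16, adjusted p = 0.00221). The groups did not overlap for either gene. In mean CPM EPAS1 was above HIF1A in both groups, at 250 against 197 in normoxia and 506 against 123 in hypoxia. Per kilobase of exon, EPAS1 had 34.3 against 38.2 CPM for HIF1A in normoxia and 69.4 against 23.9 CPM in hypoxia. The order of the 2 genes thus depended on the measure in normoxia, and it was not tested. ARNT, the shared partner, stayed between 67.5 and 75.3 CPM in all 6 libraries (0.00 ± 0.09). ARNT2, its paralog, fell by 0.55 ± 0.18 from a mean of 20.2 to 13.8 CPM, a call lost without normoxia replicate 2 or any 1 of the hypoxia libraries (adjusted p up to 0.0873).

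Oxygen sensors and regulators of HIF moved both ways. EGLN3, the prolyl hydroxylase known as a HIF target, stood at 9.82, 9.48 and 10.5 CPM in normoxia and 41.9, 42.9 and 40.1 CPM in hypoxia (2.07 ± 0.16). CITED2, which competes with HIF alpha subunits for the coactivator p300, stood at 151, 161 and 142 CPM in normoxia and 430, 434 and 461 CPM in hypoxia (1.54 ± 0.15). Both were separated between the groups, as were 56.7% of all tested genes. SIAH2, a ubiquitin ligase that targets prolyl hydroxylases for destruction and so is no brake on HIF, rose by 0.75 ± 0.16 to 53.6 CPM, while CITED4, a relative of CITED2, fell by 1.25 ± 0.30 from 8.78 to 3.69 CPM. VHL (−0.06 ± 0.09) and HIF1AN, the asparaginyl hydroxylase (−0.08 ± 0.12), did not pass the test. In all, 4 of the 12 tested members of the list rose, among them SIAH2 and its relative SIAH1 (26.7% of exon length shared with LONP2, call lost without normoxia replicate 2, adjusted p up to 0.0701), and 3 fell, or 1 without normoxia replicate 2 or 3 or hypoxia replicate 1 or 2.

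Glucose entry and its first phosphorylation were among the strongest changes. SLC2A1, the main glucose transporter of most cells, stood at 19.3, 21.5 and 19.3 CPM in normoxia and 134, 128 and 154 CPM in hypoxia (2.79 ± 0.16, adjusted p = 1.08e-12). HK2, the hypoxia-linked hexokinase, stood at 7.25, 8.69 and 6.45 CPM and at 62.9, 50 and 63.4 CPM (2.97 ± 0.17), and HK1, the widespread form, at 169, 197 and 146 CPM and at 480, 467 and 469 CPM (1.47 ± 0.15). No library of one group reached the range of the other for these 3 genes, as for 56.7% of all tested genes. HK1 remained the more abundant, at 75 against 9.69 CPM per kilobase for HK2 in hypoxia. SLC2A6 rose by 1.28 ± 0.17, and SLC2A3 rose to only 1.86 to 2.49 CPM. The intracellular transporter SLC2A8 fell from 22.4, 23.8 and 19.5 to 8.71, 8.65 and 10.6 CPM (−1.24 ± 0.21), and SLC2A12 fell by 0.58 ± 0.15, though 38.9% of its exon length is shared with TBPL1. In this list 8 of 11 tested members rose and 2 fell, with a median of 1.47.

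Glycolytic enzymes rose almost throughout. Of 13 tested enzymes 12 rose and none fell, with a median of 0.94. PFKM, one of 3 phosphofructokinase genes, was the exception at −0.01 ± 0.12, while PFKL (0.68 ± 0.18) and PFKP (0.60 ± 0.14) rose. PGK1, which makes the first ATP of the pathway, stood at 757, 909 and 688 CPM in normoxia and 2940, 2887 and 2844 CPM in hypoxia (1.88 ± 0.14, adjusted p = 1.03e-10). ENO2, the neuronal enolase, rose from 24.6, 28.5 and 24.9 to 120, 115 and 132 CPM (2.23 ± 0.12), and ENO1, the abundant form, from 2561, 3174 and 2214 to 3628, 3678 and 3576 CPM (0.45 ± 0.16, adjusted p = 0.0360). ENO1 no longer passed in 5 of the 6 fits that each left out a library (adjusted p up to 0.174). ENO1 remained the more abundant, with 688 CPM per kilobase for ENO1 and 28.6 for ENO2 in hypoxia. LDHA, which turns pyruvate into lactate, stood at 1818, 2015 and 1784 CPM in normoxia and 5650, 6010 and 5556 CPM in hypoxia (1.62 ± 0.11). Summed over the list, these transcripts had a mean of 11469 CPM in normoxia and 24006 CPM in hypoxia. Normoxia varied more, from 10008 CPM in replicate 3 to 13303 CPM in replicate 2, and hypoxia held 23849 to 24294 CPM.

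The PFKFB enzymes make or remove fructose 2,6-bisphosphate, the strongest activator of phosphofructokinase. PFKFB4 stood at 9.26, 9.42 and 11.1 CPM in normoxia and 109, 107 and 118 CPM in hypoxia (3.49 ± 0.17), and PFKFB3 at 26.2, 27.8 and 26.4 CPM and 113, 111 and 106 CPM (2.04 ± 0.10). Their levels in hypoxia were 18.2 and 18 CPM per kilobase. PFKFB2 rose by 0.44 ± 0.13, a call lost without hypoxia replicate 1 (adjusted p = 0.0514), and PFKFB1 stayed under 1 CPM.

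Glycogen genes moved at both ends of the store. PPP1R3C, a subunit that brings protein phosphatase 1 to glycogen and so activates glycogen synthase, stood at 4.58, 4.30 and 5.09 CPM in normoxia and 57.0, 64.0 and 51.9 CPM in hypoxia (chromosome 10, 91628442 to 91633054, 3.63 ± 0.23, adjusted p = 1.11e-11). Its relative PPP1R3B (1.41 ± 0.12), glycogen synthase GYS1 (1.30 ± 0.15) and the branching enzyme GBE1 (1.10 ± 0.09) rose as well. On the breakdown side the liver-type phosphorylase PYGL stood at 51.2, 54.2 and 52.6 CPM in normoxia and 193, 171 and 181 CPM in hypoxia (1.78 ± 0.10), whereas the brain-type PYGB did not pass (0.24 ± 0.14, adjusted p = 0.200). GYG1, the protein primer of glycogen, fell from 121, 143 and 117 to 66.0, 68.2 and 71.5 CPM (−0.89 ± 0.11), and PHKB, a phosphorylase kinase subunit, fell by 0.71 ± 0.15. Of 18 tested glycogen genes 8 rose and 3 fell.

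**Figure D2:**
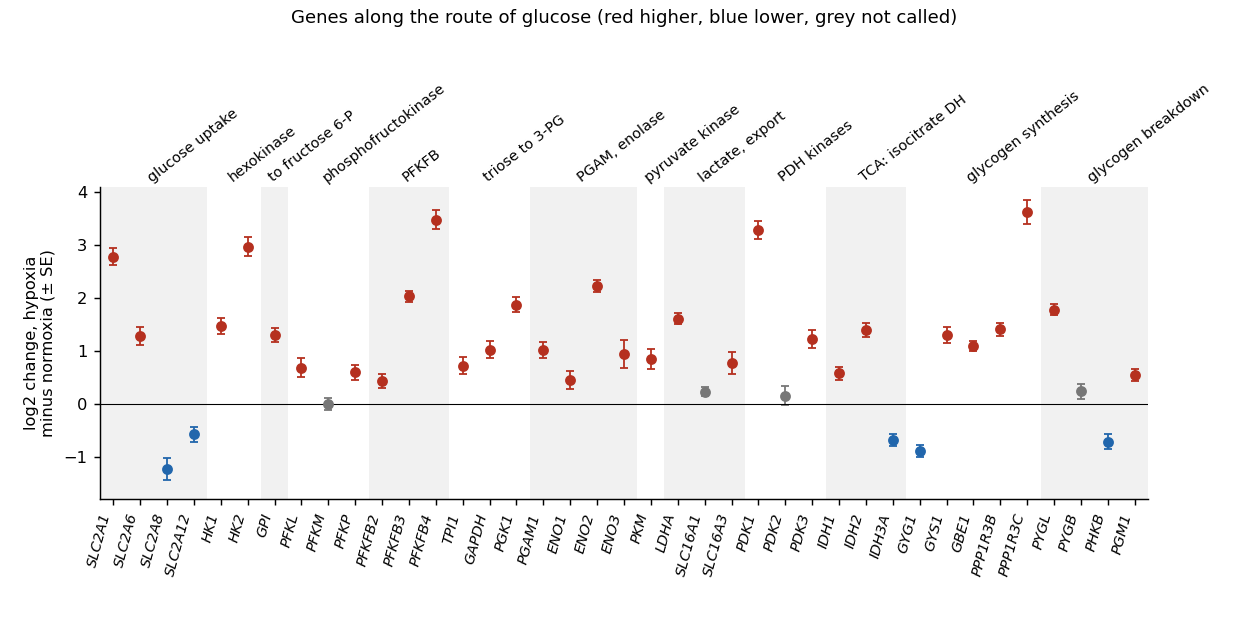
Points are log2 changes with SE for genes ordered from glucose uptake to lactate, then the gate to the mitochondria and glycogen, with genes higher in hypoxia in red, lower in blue and not called in grey. Isoforms at 1 step have different values, as PFKM (−0.01) and PFKL (0.68) or PDK2 (0.16) and PDK1 (3.29), and among glycogen genes GYG1 (−0.89) lies below 0 and GYS1 (1.30) above.

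At the gate from glycolysis to the mitochondria, PDK1 stood apart. This kinase switches off pyruvate dehydrogenase. It stood at 16.9, 16.5 and 20.3 CPM in normoxia and 178, 162 and 184 CPM in hypoxia (3.29 ± 0.18, adjusted p = 3.24e-13). PDK3 rose from 14.7, 14.5 and 16.3 to 40.2, 33.8 and 32.5 CPM (1.23 ± 0.17). PDK2 (0.16 ± 0.18, 38.6% of exon length shared with SAMD14) and PDK4 (−0.44 ± 0.50, at most 2.10 CPM) did not pass. Of 14 tested genes of pyruvate entry 2 rose and 1, PDHA1, fell (−0.31 ± 0.09, 21.3% of exon length shared with MAP3K15), a call lost without normoxia replicate 2 (adjusted p = 0.0634). The median was 0.04.

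The hypoxia response element is a short core, and its letters in the promoters of 6 genes picked by hand among those that rose more than 2-fold, of glucose and collagen metabolism and ANGPTL4, are shown so that the match can be seen beside the change. Sequences are from RefSeq (GRCh38.p14) and cover the 250 bases before each start on the gene's own strand, 5′ to 3′. Capitals mark ACGTG or its reverse complement CACGT, searched on both strands. ACGTG also lies inside CACGTG, the E-box of MYC and the clock factors, and a match is a string of letters, not a tested binding site. The windows are PDK1 at chr2:172555840-172556089 and HK2 at chr2:74834920-74835169 on the plus strand, ANGPTL4 at chr19:8363905-8364154 and PGK1 at chrX:78103998-78104247 on the plus strand, and P4HA1 at chr10:73096867-73097116 and SLC2A1 at chr1:42958869-42959118 on the minus strand.

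PDK1: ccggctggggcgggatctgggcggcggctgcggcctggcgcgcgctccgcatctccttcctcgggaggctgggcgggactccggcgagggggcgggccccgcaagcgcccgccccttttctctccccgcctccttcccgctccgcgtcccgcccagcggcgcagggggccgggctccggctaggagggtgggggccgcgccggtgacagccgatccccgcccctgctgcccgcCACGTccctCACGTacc

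HK2: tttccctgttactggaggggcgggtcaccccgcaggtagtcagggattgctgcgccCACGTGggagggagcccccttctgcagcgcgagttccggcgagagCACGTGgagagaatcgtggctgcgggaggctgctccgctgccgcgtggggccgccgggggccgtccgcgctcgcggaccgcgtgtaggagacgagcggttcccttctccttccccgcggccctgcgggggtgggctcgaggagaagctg

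ANGPTL4: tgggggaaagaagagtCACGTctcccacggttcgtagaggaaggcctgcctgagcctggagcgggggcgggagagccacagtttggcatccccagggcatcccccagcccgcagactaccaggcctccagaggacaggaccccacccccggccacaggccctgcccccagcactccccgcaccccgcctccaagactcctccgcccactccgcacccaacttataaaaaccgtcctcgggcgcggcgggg

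PGK1: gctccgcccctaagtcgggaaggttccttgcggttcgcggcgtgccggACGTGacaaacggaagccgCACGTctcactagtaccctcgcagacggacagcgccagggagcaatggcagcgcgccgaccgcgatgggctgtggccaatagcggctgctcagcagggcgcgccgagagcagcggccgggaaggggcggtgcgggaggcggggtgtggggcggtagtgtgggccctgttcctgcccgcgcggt

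P4HA1: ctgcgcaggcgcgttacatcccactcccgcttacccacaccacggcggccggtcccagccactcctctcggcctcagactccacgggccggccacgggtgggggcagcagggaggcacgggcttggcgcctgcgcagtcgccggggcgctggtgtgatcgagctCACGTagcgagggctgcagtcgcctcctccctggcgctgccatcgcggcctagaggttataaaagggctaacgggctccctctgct

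SLC2A1: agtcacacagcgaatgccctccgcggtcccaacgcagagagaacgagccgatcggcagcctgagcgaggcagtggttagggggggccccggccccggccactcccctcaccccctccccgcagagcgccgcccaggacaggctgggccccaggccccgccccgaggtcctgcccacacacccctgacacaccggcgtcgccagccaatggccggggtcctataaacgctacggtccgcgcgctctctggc

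PDK1 held the core at 8 and 17 bases before the start, and PGK1 at 183 and 202. HK2 held it 2 times, each inside CACGTG, ANGPTL4 once at 234 bases and P4HA1 once at 86. SLC2A1, with a log2 change of 2.79 beside 2.97 for HK2, had none in this window. GCGTG, the other form of the core, was not marked and occurred 2 times in HK2 and once in PGK1. Among all 35116 promoters of the RefSeq table, 18.5% held ACGTG in a window of this length, 43.2% held either form and 6.34% held CACGTG. The 6 were picked by hand, so their matches say nothing about genes that rose. ACGTG was in 20.7% of the matched promoters of genes higher by 2-fold or more and in 22.3% of those of all tested genes, but only 70.4% and 78.5% of these genes could be matched, which makes the comparison void.

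Of 16 tested enzymes of the TCA cycle 2 rose and 5 fell (median −0.23). IDH2, the mitochondrial NADP-dependent isocitrate dehydrogenase, went against the rest. It stood at 129, 153 and 120 CPM in normoxia and 358, 348 and 354 CPM in hypoxia (1.40 ± 0.13). The cytosolic IDH1 rose by 0.58 ± 0.12, and IDH3A, a subunit of the NAD-dependent enzyme of the cycle, fell by 0.67 ± 0.11, with 38.9% of its exon length shared with ACSBG1. SUCLG2 and FH fell by 0.41 and 0.38. With only the 6 libraries in the fit 9 members fell, and 3 did without normoxia replicate 2 or any 1 hypoxia library.

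Genes of the respiratory chain changed little. None of 35 tested nuclear-encoded members rose and 5 fell (14.3%), a share near the 14.9% of all genes. The median was −0.15, and 28 of the 35 had a change below 0. With only the 6 libraries in the fit 13 of 34 fell, against 27.3% of all genes there, and 3 did without any 1 of the 6. Among the 13 transcripts of mitochondrial DNA, MT-ND2 fell from 1797, 1649 and 2376 to 844, 1155 and 1086 CPM (−0.92 ± 0.16, adjusted p = 0.000138) and was 1 of 2 that passed, a count that dropped to 1 when any library except normoxia replicate 2 was left out. The list had a median of −0.31, and 8 members fell with only the 6 libraries in the fit. OXCT1, which lets mitochondria burn ketone bodies, fell from 32.4, 34.5 and 33.4 to 12.1, 10.3 and 12.1 CPM (−1.54 ± 0.18). FAM162A, a mitochondrial protein known as a HIF target, rose from 44.3, 46.3 and 46.7 to 146, 153 and 146 CPM (1.69 ± 0.08). Mitochondrial ribosomal proteins fell in 14 of 37 with none higher (median −0.31), led by MRPS10 (134, 138 and 138 CPM against 72.8, 73.1 and 80.6 CPM, −0.85 ± 0.11), and in 27 with only the 6 libraries. Cytosolic ribosomal proteins gave 2 higher and none lower of 42 (median 0.06), and at most 1 higher when any 1 library was left out.

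Lactate leaves the cell through monocarboxylate transporters, and carbonic anhydrases help to clear the acid. SLC16A3 (MCT4), the exporter of glycolytic cells, stood at 126, 135 and 111 CPM in normoxia and 203, 203 and 236 CPM in hypoxia (0.78 ± 0.21). SLC16A1 (MCT1) did not pass (0.24 ± 0.09, adjusted p = 0.0591). The surface carbonic anhydrase CA12 rose from 1.58, 1.52 and 1.33 to 9.44, 9.00 and 8.83 CPM (2.62 ± 0.20). CA9, a widely used marker of hypoxia, reached 0.843 to 1.08 CPM in hypoxia. CA9 also shares 38.5% of its exon length with ARHGEF39. BSG, the chaperone of these transporters, did not pass (−0.09 ± 0.17).

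Factors that act on blood vessels were raised selectively. VEGFA (chromosome 6, 43770184 to 43786487), the main vascular growth factor, stood at 54.0, 54.8 and 58.2 CPM in normoxia and 390, 376 and 392 CPM in hypoxia (2.79 ± 0.14, adjusted p = 1.64e-13). PGF, which binds the same receptor family, rose from 4.37, 5.65 and 4.57 to 24.2, 26.8 and 24.4 CPM (2.37 ± 0.31). VEGFC, the lymphatic factor, rose by 0.87 ± 0.12 and VEGFB did not pass (0.34 ± 0.20). PDGFB, which recruits pericytes, stood at 45.6, 45.7 and 45.5 CPM in normoxia and 220, 203 and 223 CPM in hypoxia (2.24 ± 0.15), while PDGFA stayed at 9.69 to 11.6 CPM in all 6 libraries. FGF11 rose from 4.77, 4.50 and 4.79 to 27.5, 27.8 and 29.2 CPM (2.59 ± 0.15). ANGPTL4, an inhibitor of lipoprotein lipase that also acts on vessels, stood at 16.3, 16.2 and 16.8 CPM in normoxia and 194, 196 and 209 CPM in hypoxia (3.61 ± 0.29). Adrenomedullin (ADM), a vasodilator, stood at 67.9, 71.3 and 66.8 CPM and at 196, 197 and 206 CPM (1.54 ± 0.14). For every gene with library values in this paragraph except PDGFA the groups were separate, as they were for 56.7% of all tested genes. ANGPTL4 was also named by a rule that requires this. The VEGF co-receptor NRP1 moved the other way, from 185, 179 and 192 to 107, 99.6 and 111 CPM (−0.81 ± 0.10). Endothelin-1 (EDN1, 0.22 ± 0.19) did not pass. Of 28 tested members 12 rose and 1 fell, or 2 fell without normoxia replicate 2.

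**Figure D3:**
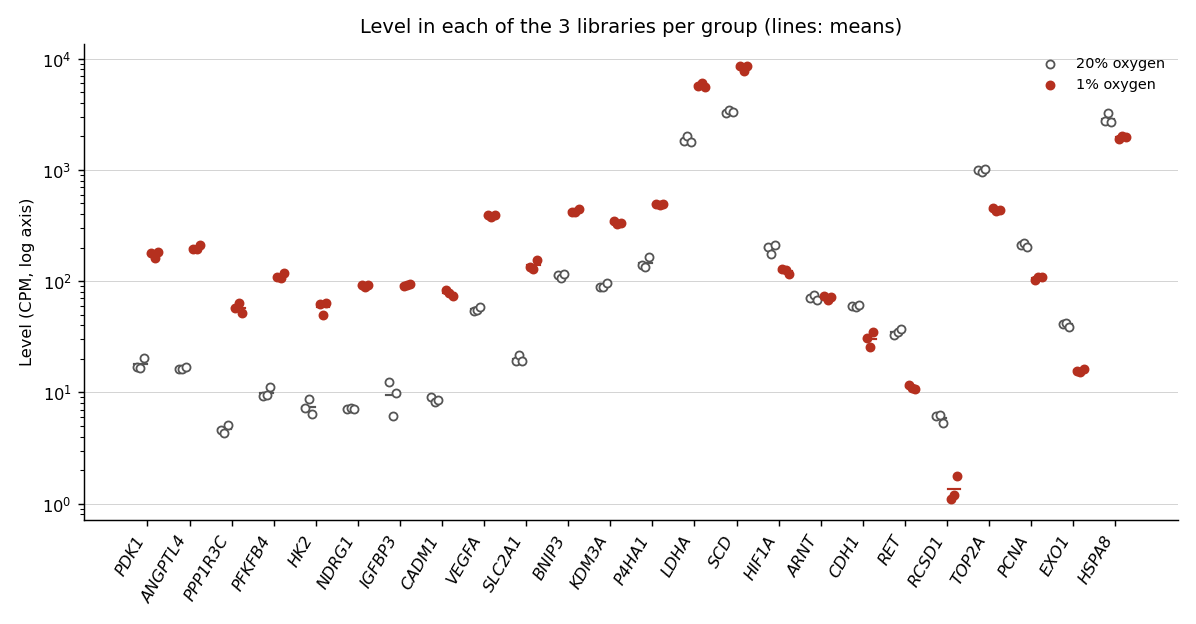
Each point is the level of a gene in 1 library in CPM on a log axis, open for 20% and filled for 1% oxygen, with a line at the mean of each 3. For 23 of the 24 genes the groups do not overlap, and ARNT, at 67.5 to 75.3 CPM, is the exception. The 24 were picked by hand, so this count reflects the choice, and 56.7% of all tested genes had no overlap.

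Collagen needs hydroxylated proline and lysine, made by enzymes that use oxygen themselves. P4HA1, a prolyl hydroxylase subunit, stood at 139, 133 and 166 CPM in normoxia and 496, 485 and 495 CPM in hypoxia (1.75 ± 0.13), and P4HA2 rose by 1.28 ± 0.11. PLOD2, the lysyl hydroxylase of collagen telopeptides, stood at 461, 391 and 511 CPM in normoxia and 1893, 1877 and 1735 CPM in hypoxia (2.01 ± 0.21). Its relatives PLOD1 (0.13 ± 0.15) and PLOD3 (−0.15 ± 0.15) did not pass. ERO1A, the oxidase of disulfide formation, rose from 174, 152 and 175 to 624, 555 and 623 CPM (1.85 ± 0.17), and its paralog ERO1B did not pass (−0.45 ± 0.23). LOXL2, a cross-linking oxidase, rose by 1.19 ± 0.14. In this list 7 of 21 rose and 1 fell (median 0.13), and none fell without normoxia replicate 1 or 2 or hypoxia replicate 1 or 2. With only the 6 libraries in the fit 6 fell, a share near the 27.3% of all genes there.

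The collagens themselves rose in smaller steps. COL4A1 and COL4A2, the paired chains of basement membrane collagen that share a promoter, went from means of 3.99 to 9.32 CPM (1.22 ± 0.36) and 4.78 to 9.69 CPM (1.02 ± 0.25). The COL4A1 call was lost without normoxia replicate 3 (adjusted p = 0.0595). COL7A1, of anchoring fibrils, rose from 14.5, 12 and 15.4 to 30.8, 31.1 and 31.4 CPM (1.16 ± 0.12). COL5A1 rose by 1.00 ± 0.16 and TGFBI, an abundant matrix adaptor, by 0.82 ± 0.09, from 352 to 624 CPM. SPARC, a collagen-binding matricellular protein, fell from 133, 137 and 124 to 67.5, 61.0 and 78.2 CPM (−0.93 ± 0.18), and LAMA3, a laminin chain, from 12.7, 12.6 and 14.7 to 5.45, 4.05 and 5.20 CPM (−1.44 ± 0.24). DCN, decorin, stood at 5.42, 3.94 and 7.75 CPM in normoxia and 1.61, 1.36 and 2.47 CPM in hypoxia (−1.66 ± 0.60, adjusted p = 0.0370). DCN no longer passed when normoxia replicate 1 or 3 or hypoxia replicate 1 or 2 was left out, with no filter on low counts, or with DESeq2 (adjusted p up to 0.131 over all alternatives). Of 32 matrix genes 14 rose and 3 fell (median 0.31).

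Several demethylases that need oxygen rose. KDM3A, a histone H3K9 demethylase, stood at 88.2, 88.3 and 96.7 CPM in normoxia and 347, 327 and 332 CPM in hypoxia (1.88 ± 0.12). KDM7A (1.56 ± 0.20), KDM4B (1.44 ± 0.12) and KDM2B (1.06 ± 0.13) rose to 51.2, 63.0 and 31.1 CPM, and ALKBH5, an RNA demethylase, rose by 0.89 ± 0.18. Among relatives, KDM3B, KDM4D, KDM2A and KDM6A did not pass. Of 24 tested 9 rose and 1 fell, and none fell without normoxia replicate 1 or 2 or hypoxia replicate 2 or 3.

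The mitophagy receptors BNIP3 and BNIP3L rose together. BNIP3 stood at 114, 107 and 116 CPM in normoxia and 422, 419 and 442 CPM in hypoxia (1.93 ± 0.09, adjusted p = 6.36e-14), and BNIP3L at 67.9, 58.6 and 66.2 CPM and 278, 255 and 267 CPM (2.05 ± 0.17). PINK1, a kinase of a separate mitophagy route, rose by 0.89 ± 0.19 to 88.4 CPM, and FUNDC1 did not pass (0.06). BCL2L1, an inhibitor of apoptosis, did not pass. The list had 5 of 21 higher and 3 lower.

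Growth-restraining genes of the mTORC1 pathway and arrestin-domain genes included a few large rises. DDIT4 (REDD1), which restrains mTORC1 through TSC2, stood at 82.2, 102 and 82.8 CPM in normoxia and 404, 393 and 416 CPM in hypoxia (2.18 ± 0.15). DEPTOR, an inhibitor bound to the complex, rose from 6.16, 5.96 and 6.58 to 28.6, 27 and 27.2 CPM (2.15 ± 0.18). ARRDC3, an arrestin-domain protein of receptor traffic, rose from 52.2, 43.6 and 57.9 to 299, 287 and 308 CPM (2.54 ± 0.29), while its relative TXNIP, which restrains glucose uptake, fell from 12.8, 11.4 and 11.8 to 5.57, 5.43 and 7.14 CPM (−0.99 ± 0.28). Of 17 tested members 4 rose and 2 fell (median 0.04), with 4 lower when only the 6 libraries were fitted and 1 lower without normoxia replicate 2.

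Some clock genes and some partners of the MYC network rose. BHLHE40 (DEC1), a clock repressor, stood at 75.9, 81.1 and 74.1 CPM in normoxia and 223, 214 and 225 CPM in hypoxia (1.52 ± 0.13), RORA, an activator within the clock, rose by 1.77 ± 0.19 to 14.3 CPM and NFIL3 by 1.05 ± 0.12 to 35.4 CPM. CLOCK (0.08), CRY2 (−0.03) and PER2 (−0.16) did not pass. None of 17 clock genes fell and 8 rose. MXI1, which competes with MYC for MAX, stood at 20.1, 19.8 and 23.2 CPM in normoxia and 82.8, 79.8 and 78.6 CPM in hypoxia (1.93 ± 0.10). MYC rose by 0.55 ± 0.13 and MXD4 by 0.81 ± 0.16.

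Single genes of lipid synthesis and storage rose. SCD, the desaturase that makes oleate with the help of oxygen, was the gene that gained most counts: 3280, 3462 and 3293 CPM in normoxia and 8652, 7770 and 8503 CPM in hypoxia (1.31 ± 0.14). ACSS2, which makes acetyl-CoA from acetate, rose from 23.9, 27.8 and 22.6 to 84.2, 72.9 and 87.1 CPM (1.72 ± 0.16), ACLY by 0.89 ± 0.10 and FASN by 0.48 ± 0.13, whereas ELOVL5 fell by 0.41 ± 0.12. HILPDA, which blocks breakdown of lipid droplets, stood at 32.6, 32.9 and 32.1 CPM in normoxia and 138, 140 and 136 CPM in hypoxia (2.09 ± 0.14), and the droplet coat protein PLIN2 at 28.9, 33.9 and 24.4 CPM and 106, 97.2 and 107 CPM (1.83 ± 0.13). VLDLR, a lipoprotein receptor, rose by 1.85 ± 0.12. The list of lipid droplets and fatty acid oxidation as a whole had 7 of 29 higher, 4 lower and 18 not called (median 0.03), and 1 or 2 lower when any library except normoxia replicate 3 was left out. INSIG2, which holds the sterol sensor SCAP in the endoplasmic reticulum, rose from 18.3, 17.9 and 20.3 to 83.8, 78.6 and 77.5 CPM (2.09 ± 0.14) and INSIG1 by 1.08 ± 0.16. Most enzymes of cholesterol synthesis moved less: 13 of 22 members of that list rose and none fell (median 0.41), and 7 rose without hypoxia replicate 1 and 8 without normoxia replicate 1. Fatty acid synthesis gave 7 of 15 higher and 1 lower.

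STEAP3, the ferrireductase that frees iron taken up with transferrin, stood at 78.4, 82.8 and 76.1 CPM in normoxia and 341, 331 and 331 CPM in hypoxia (2.08 ± 0.17). SLC11A2 (DMT1), the transporter of the next step, rose from 68.4, 67.1 and 64.0 to 136, 137 and 122 CPM (0.99 ± 0.09). The transferrin receptor TFRC had non-overlapping groups (1302 to 1377 and 1662 to 1755 CPM) but did not pass (0.36 ± 0.15, adjusted p = 0.0677). None of 17 iron genes fell and 6 rose, or 10 with 2 lower when only the 6 libraries were fitted. Only 4 rose without normoxia replicate 1 or 3 or hypoxia replicate 1, and 1 fell without hypoxia replicate 3.

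Genes of the amino acid response, driven by the factor ATF4 when amino acids run short, rose broadly: 23 of 36 tested, with none lower and a median of 0.96. The list includes VEGFA, DDIT4 and STC2, which are also HIF targets. ATF4 itself went from 105, 115 and 104 to 212, 211 and 226 CPM (1.00 ± 0.13). Asparagine synthetase (ASNS) stood at 96.9, 115 and 89.2 CPM in normoxia and 313, 280 and 338 CPM in hypoxia (1.63 ± 0.13). PHGDH, the entry to serine synthesis, rose by 1.62 ± 0.15 and PSAT1, the next enzyme, by 1.11 ± 0.12, but PSPH, the last (−0.01 ± 0.12), and SHMT2 (−0.03 ± 0.19) did not pass. The cystine transporter SLC7A11 rose from 22.9, 21 and 22.8 to 82.5, 52.0 and 75.6 CPM (1.66 ± 0.25), with hypoxia replicate 2 lowest. The glutamine and alanine transporter SLC38A2 rose from 841 to 2004 CPM (1.25 ± 0.30), and NUPR1, a stress-induced chromatin protein, by 1.80 ± 0.19.

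Some abundant chaperones fell. HSPA8 lost more counts than any other gene without overlap between the groups, from 2756, 3219 and 2701 to 1913, 2021 and 1994 CPM (−0.55 ± 0.13, adjusted p = 0.00189). HSP90AA1 (−0.69 ± 0.16), HSP90AB1 (−0.38 ± 0.11) and the mitochondrial HSPD1 (−0.44 ± 0.10) were also among the 10 largest losses, and the HSP90AB1 call was lost without normoxia replicate 2 (adjusted p = 0.109). Of 14 heat shock genes 5 fell, none rose and 9 were not called. With only the 6 libraries in the fit 8 fell and 1 rose, and without normoxia replicate 2 only 3 fell. In the endoplasmic reticulum the central chaperone HSPA5 did not pass (0.02 ± 0.09), HSP90B1 fell by 0.57 ± 0.11, and HERPUD1 and EDEM1, which act in the disposal of misfolded proteins, rose by 1.04 ± 0.10 and 0.87 ± 0.10. That list had 3 of 20 higher and 5 lower (median −0.13).

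Other genes with the largest relative rises act in signalling and adhesion. PPFIA4 (chromosome 1, 203026498 to 203078740), a liprin scaffold protein, stood at 2.45, 1.32 and 2.81 CPM in normoxia and 32.1, 33.7 and 31.7 CPM in hypoxia (3.89 ± 0.24, adjusted p = 4.51e-12). NDRG1, a stress-response protein known as a HIF target, stood at 7.13, 7.25 and 7.10 CPM and 92.8, 88.0 and 91.8 CPM (3.67 ± 0.18), while its relative NDRG3 stayed at a mean of 101 CPM in both groups. IGFBP3, which binds insulin-like growth factors, stood at 12.4, 6.13 and 9.82 CPM and 91.2, 92.4 and 93.8 CPM (3.29 ± 0.30). In all 3 the groups were separate, as the rule that named them requires. CADM1, an adhesion molecule, rose from 9.08, 8.21 and 8.46 to 84.0, 78.5 and 74.3 CPM (3.20 ± 0.17). NOTCH3, a receptor, rose from 1.58, 1.32 and 2.19 to 20.0, 15.3 and 17.5 CPM (3.38 ± 0.26), and NOTUM, a secreted enzyme that inactivates Wnt proteins, from 1.27, 1.49 and 1.33 to 10.4, 12.6 and 10.1 CPM (3.02 ± 0.39). FOXL1, a forkhead factor, rose by 3.11 ± 0.12 to 87.0 CPM, and UPK1A, a tetraspanin of the urothelium, by 2.96 ± 0.31 to 5.85 CPM. The stanniocalcin STC2 rose from 55.8, 55.5 and 55.0 to 390, 357 and 396 CPM (2.78 ± 0.09, adjusted p = 2.89e-17). AKAP12, a scaffold of protein kinase A, was among the 10 largest gains in counts, from 1039, 979 and 1115 to 3069, 2848 and 2930 CPM (1.50 ± 0.19). The other 2 of the 15 largest relative rises at 5 CPM or more, AC036214.3 and ISY1-RAB43, share all of their exon length with TPD52 and RAB43, and their counts cannot be given to one gene.

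Among receptors and cell identity genes the changes went both ways. EGFR rose from 326, 293 and 341 to 581, 507 and 526 CPM (0.75 ± 0.12), IGF1R by 0.60 ± 0.12 and DDR1, a collagen receptor, by 0.92 ± 0.21. The related collagen receptor DDR2 rose by 1.51 ± 0.20 to 10.4 CPM. RET (chromosome 10, 43077027 to 43130351), the receptor of GDNF-family ligands, fell from 32.6, 35.0 and 37.1 to 11.6, 11.0 and 10.8 CPM (−1.65 ± 0.15, adjusted p = 1.03e-08). All 3 TAM receptors fell: AXL by 0.78 ± 0.18, TYRO3 by 0.73 ± 0.15 and MERTK by 0.70 ± 0.09. E-cadherin (CDH1) fell from 59.6, 58.9 and 61.5 to 31.1, 25.4 and 34.6 CPM (−0.98 ± 0.14). N-cadherin (CDH2, 0.04 ± 0.08), VIM (0.24 ± 0.13) and ZEB1 (0.02 ± 0.22) did not pass, while SNAI1 (0.94 ± 0.25) and TGFB1 (1.24 ± 0.21) rose. The list of EMT genes had 3 of 18 higher and 3 lower, near the 15.4% and 14.9% of all genes. AGR2, a secretory protein of classical pancreatic cancer, fell from 68.2, 72.2 and 78.4 to 22.8, 26.9 and 26.1 CPM (−1.53 ± 0.14). Its list, of epithelial and classical markers, had 3 of 22 higher, 3 lower and 16 not called (median 0.02), also near those shares.

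Further large falls lay outside these lists. RCSD1, an actin-capping regulator, fell from 6.10, 6.33 and 5.28 to 1.10, 1.21 and 1.77 CPM (−2.12 ± 0.26, adjusted p = 9.61e-07). LONRF2, a ring-finger protein, fell from 99.8, 86.0 and 104 to 34.4, 34.8 and 33.1 CPM (−1.50 ± 0.18), TNFAIP2 from 192, 221 and 172 to 66.9, 68.9 and 82.2 CPM (−1.43 ± 0.17), and IL6R, the interleukin-6 receptor, from 30.0, 31.5 and 28.7 to 11.2, 11.0 and 11.5 CPM (−1.42 ± 0.12). HTR1D, ADAMTS15 and WNT10A fell by 1.54, 1.45 and 1.45. In each the groups were separate, as the rule that named them requires.

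Genes of cell division fell almost without exception. Of 31 tested replication genes 29 fell and none rose (median −0.81), against 14.9% of all genes, and of 25 mitosis genes 24 fell (median −0.75). Both lists were negative in every member. CDCA7, a MYC and E2F target, stood at 106, 114 and 107 CPM in normoxia and 31.8, 34.4 and 39.8 CPM in hypoxia (chromosome 2, 173354820 to 173368997, −1.63 ± 0.22). DSCC1, which loads the replication clamp, fell from 28.4, 30.5 and 32.7 to 10.8, 10.1 and 10.5 CPM (−1.54 ± 0.17), MCM10, which helps to start forks, from 45.4, 50 and 46.1 to 16.4, 18.7 and 16.8 CPM (−1.45 ± 0.18), and the clamp PCNA from 209, 221 and 204 to 103, 109 and 109 CPM (−0.99 ± 0.12). TOP2A, the topoisomerase of dividing cells, stood at 1004, 956 and 1013 CPM in normoxia and 453, 423 and 437 CPM in hypoxia (−1.18 ± 0.19), and the mitotic kinases AURKB, BUB1 and PLK1 fell by 1.10 ± 0.19, 1.10 ± 0.13 and 1.01 ± 0.16. UBE2C was the only mitosis gene not called (−0.24 ± 0.16). Bulk RNA cannot tell fewer dividing cells from less of these transcripts in each.

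Many genes of DNA repair and nucleotide supply fell. In homologous recombination, Fanconi and mismatch repair 17 of 32 fell, 15 were not called and none rose (median −0.62). The exonuclease EXO1 stood at 40.9, 42.5 and 39.0 CPM in normoxia and 15.6, 15.4 and 16.3 CPM in hypoxia (−1.37 ± 0.22), with no overlap. BLM fell by 1.08 ± 0.22 and RAD54L by 1.33 ± 0.19, with 25.1% of its exon length shared with LRRC41. PALB2 (−0.02) and PMS2 (−0.14) did not pass. The ribonucleotide reductase subunit RRM1 fell from 282, 299 and 280 to 141, 141 and 147 CPM (adjusted p = 4.19e-06), and its partner RRM2 did not pass (−0.23 ± 0.15). Of 25 nucleotide genes 13 fell and 1 rose, but 7 fell without normoxia replicate 2 and 8 without any 1 hypoxia library. Ribosome biogenesis fell in 10 of 22 with none higher (median −0.39), or in 17 with only the 6 libraries and 6 without normoxia replicate 2, led by RRP9 (−0.86 ± 0.19) and NOLC1 (483, 533 and 454 CPM against 305, 298 and 313 CPM, −0.68 ± 0.13).

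Around the G1 checkpoint, the E2F genes E2F8, E2F2 and E2F1 fell by 1.18 ± 0.22, 0.98 ± 0.16 and 0.71 ± 0.18. CCNG2, an atypical cyclin of arrested cells, rose from 23.3, 19.5 and 22 to 74.6, 65.2 and 65.8 CPM (1.66 ± 0.13), and the inhibitor CDKN1A (p21) from 49.8, 55.1 and 43.8 to 98.5, 105 and 107 CPM (1.06 ± 0.17). CDKN1B (−0.05), CCND1 (−0.22 ± 0.14) and CCNE1 (−0.24) did not pass. CDKN2A and CDKN2B were listed at 0 in all libraries.

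Interferon-stimulated genes fell in 5 of 19 with none higher, among them STAT2 (−0.63 ± 0.17) and OAS3 (−0.57 ± 0.10). With only the 6 libraries in the fit 6 fell and 6 rose. Of 19 inflammatory genes 1 rose and 1 fell, and each call was lost without some single libraries. With only the 6 libraries in the fit 5 of 16 rose and 4 fell, and with the 18 in regular medium 7 of 19 rose and 2 fell. CCL2, a chemokine for monocytes, had separate groups (210 to 224 and 468 to 574 CPM) but did not pass (1.27 ± 0.50, adjusted p = 0.0564). The metallothioneins MT2A and MT1E fell by 0.97 ± 0.22 and 0.98 ± 0.23. Of 8 tested AHR targets 6 rose (median 1.27), among them CYP1B1, from 274, 236 and 282 to 609, 604 and 567 CPM (1.17 ± 0.23), and TIPARP (1.36 ± 0.10). Only 4 rose without normoxia replicate 2 or 3, and 5 without any 1 hypoxia library. With a filter of at least 1 CPM in 3 libraries, 4 of 6 tested AHR targets rose (median 0.94). STC2 is on that list too.

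**Figure D4:**
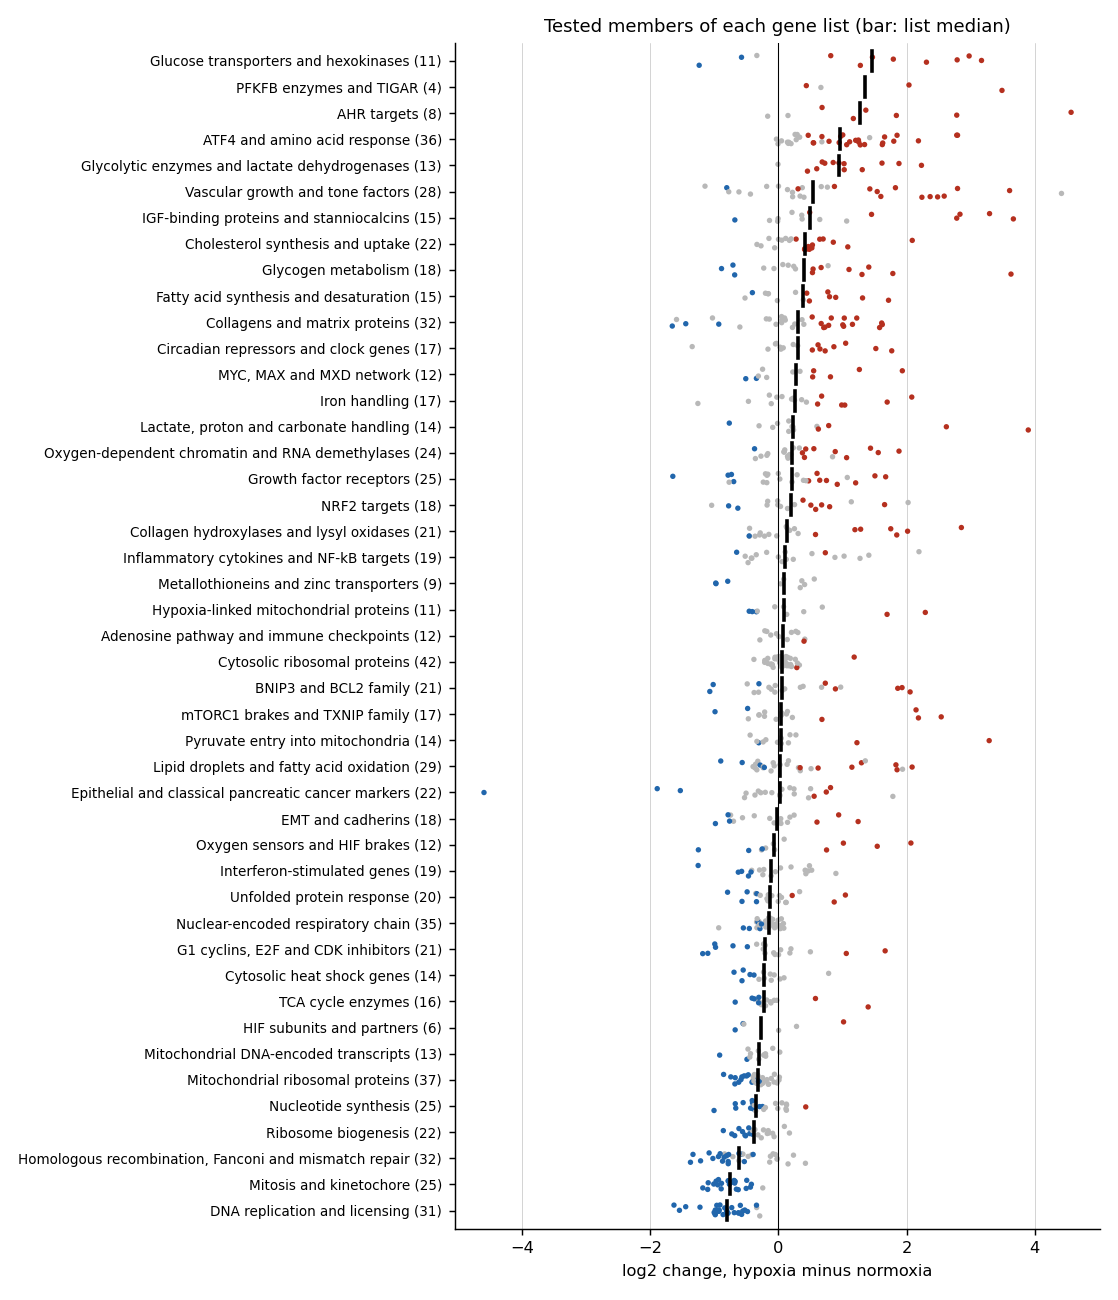
Each dot is the log2 change of a tested member of a gene list (number of tested members in brackets), red if higher, blue if lower and grey if not called, with a black bar at the list median. Medians run from −0.81 for DNA replication to 1.47 for glucose transporters and hexokinases, and many lists near 0 hold members that moved in both directions.

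The same contrast in the ARNT-knockout clones was set against the parental response with the test of the difference itself. The response differed from parental in 869 of 13943 genes in clone A (6.23%) and 660 in clone B (4.73%). With only the 18 libraries in regular medium in the fit these counts were 2952 and 2300. Among the 885 genes that rose by 2-fold or more in parental cells, the response was smaller in clone A for 251 and in clone B for 260, and larger in none. The genes were chosen for their parental rise and the comparisons share the parental libraries, which favors a smaller response in the clones. The counts, their direction and the medians are therefore a description. Medians were 1.50 for the parental line beside 0.66 and 0.58 for clones A and B. Under the same limit, among the 249 that fell by 2-fold or more, the fall was smaller for 55 and 60, with medians of −1.21, −0.51 and −0.42.

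The 6 largest rises among genes at 5 CPM or more without overlap between the parental groups differed in both clones. These rises and the falls below were chosen by the parental change, so the direction of their differences is a description too. The log2 change of PPP1R3C was 3.63 in the parental line, 0.12 ± 0.23 for clone A and −0.23 ± 0.21 for clone B, and that of ANGPTL4 was 3.61, 0.30 ± 0.28 and 0.96 ± 0.27. PPFIA4, NDRG1, PFKFB4 and NOTCH3 kept part of their rise in the clones, between 0.63 and 1.46. The 6 largest falls under the same limits were less uniform. CDCA7 fell by 1.63 in the parental line and by 1.30 ± 0.22 and 1.14 ± 0.22 in clones A and B, and the difference did not pass in either clone (0.33 ± 0.30 and 0.49 ± 0.30). OXCT1 fell by 1.54, 1.04 and 0.82, and its differences did not pass either (0.50 ± 0.26 and 0.72 ± 0.25). RCSD1, RET and DSCC1 passed the test of the difference in clone A and DCN in clone B. The difference between the clones was not tested. Without single parental libraries the calls of RCSD1, DSCC1 and DCN were lost, with adjusted p up to 0.0913, 0.115 and 0.122 over all alternatives. Those of DSCC1 and DCN were also lost with the replicate block and with no filter on low counts.

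**Figure D5:**
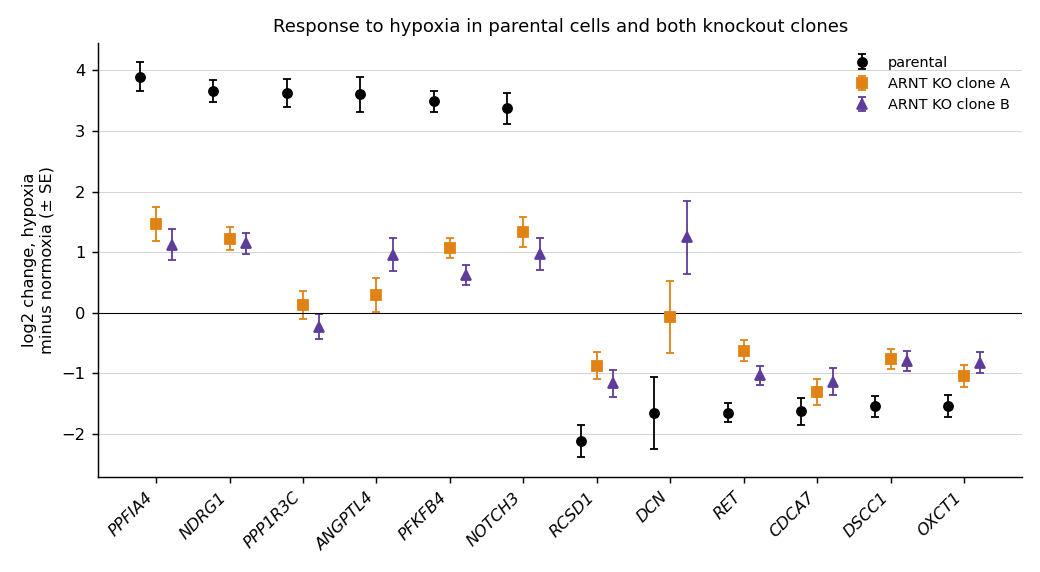
Points are the log2 change from normoxia to hypoxia with its SE for the 6 largest rises and 6 largest falls of parental cells (circles) among genes at 5 CPM or more without overlap, beside clone A (squares) and clone B (triangles). The 6 rises, 3.38 to 3.89 in parental cells, lie between −0.23 and 1.46 in the clones, while CDCA7 lies between −1.63 and −1.14 in all 3 genotypes.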

How the data were processed

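Polyadenylated RNA was sequenced from 27 libraries of Panc1 cells in 9 groups of 3, and the 6 parental libraries in regular medium carry the comparison. The authors deposited raw read counts per gene, made with HISAT2 and featureCounts on GRCh38 per the submitters' processing notes. No source used here gives versions or the handling of reads that fit several genes, so near-identical copies may share counts. Genes were tested with edgeR 4.0.16 (R 4.3.3) on all 27 libraries, with 1 coefficient per group, filterByExpr (minimum count 10, minimum total 15), TMM scaling and the quasi-likelihood test. P-values were adjusted by Benjamini-Hochberg over 13943 genes, with calls at 0.05. The procedure was run on simulated counts that gave all genes the same spread and changed only the parental hypoxia group. That setting is simpler than these data. CPM are counts per 1000000 of the TMM-scaled library size. Log2 changes are hypoxia minus normoxia with SE.

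The lists and named genes were chosen with earlier results of these data known. Named were the 15 largest rises and falls at 5 CPM or more without overlap between groups, the 10 largest gains and losses in CPM, and up to 4 called members per list, with relatives of the same step. Genes named beyond this were chosen after their values were seen. Some genes that the rule names are not reported here. A rule for long non-coding genes named none, as only 3 were tested and 0 called at an adjusted p under 0.05. Alternatives were DESeq2 1.42.0, other scalings, filters and sample sets, a replicate block and leaving out each library.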

Additional observations from a re-analysis of the deposited data

Results flagged for a closer look

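The change from normoxia to hypoxia differed between a knockout clone and parental cells, by edgeR's test of the difference, for 10 of the 12 genes examined. Over all tested genes the share was 6.23% in clone A and 4.73% in clone B. The 12 were chosen as the largest parental changes, and the test shares the parental libraries. That choice favors a smaller response in the clones, so the count and its direction are a description. Values are the clone's log2 change minus the parental one. Differences for PPFIA4 were −2.431 in clone A and −2.772 in clone B, for NDRG1 −2.443 and −2.517, and for PPP1R3C −3.506 and −3.860. For ANGPTL4 they were −3.309 and −2.649, for PFKFB4 −2.418 and −2.858, and for NOTCH3 −2.040 and −2.404. Among falls, the difference in clone A was 1.251 for RCSD1, 1.022 for RET and 0.7821 for DSCC1, and in clone B 2.899 for DCN. The RCSD1 call was lost without any 1 of 4 parental libraries (adjusted p up to 0.0913), and those of DSCC1 and DCN without any 1 of the 6 (up to 0.115 and 0.122). Groups of 3 were not examined for single outlying libraries.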

How the results depend on the processing

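Of 4212 calls in parental cells, 4135 were among the 6804 made with only the 6 libraries, and 6605 were made there with the replicate block. With the 18 libraries in regular medium 6775 were called, and the differences from parental rose to 2952 in clone A and 2300 in clone B. The cause was not tested. Leaving out each parental library gave 3167 to 3451 calls in parental cells, 619 to 762 for clone A and 441 to 504 for clone B. The replicate block gave 4060, 811 and 600. Same-numbered libraries correlated at 0.216, 0.0178 and −0.227 in their deviations, and differently numbered ones at −0.256 to 0.235. With 3 libraries a group these values cannot settle whether the numbers pair them. DESeq2 called 4643, 1296 and 967. Medians of 6 lists changed sign in an alternative, none larger than 0.073 in size. With 3 libraries a group, the median SE was 0.1715, which limits what can be said of small changes.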
